A study of Drosophila melanogaster with 24 samples.

Results

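The genes described here make, package or take back the monoamines dopamine, serotonin, tyramine and octopamine in the fly brain: ple, Ddc, Tdc2, Vmat, DAT and SerT. All probe sets annotated with 1 of these symbols were taken, which gave 9 probe sets for 6 genes (4 for Vmat and 1 for each of the others) of 18769 probe sets and 11982 genes on the array. Adult Drosophila melanogaster brains were dissociated and GFP-positive cells were collected, with about 50 brains per sample, and RNA was amplified in 2 rounds before hybridisation to Affymetrix arrays. The groups were large PDF neurons of per01 flies (2 arrays at ZT12 and 2 at ZT0), small PDF neurons (2 at ZT12 and 2 at ZT0), large PDF neurons (3 at ZT0, 2 at ZT6, 3 at ZT12 and 2 at ZT18) and ELAV neurons (3 at ZT12 and 3 at ZT0), 24 arrays in all. ZT is zeitgeber time in hours of a cycle of 12 h light and 12 h dark, with lights on at ZT0 by convention. The last 3 kinds had a yw background and came from males and females together, whereas the per01 flies, which carry a loss-of-function allele of the clock gene period, were males only. Sex and genotype therefore cannot be told apart in comparisons with per01. PDF cells carried a pdf-GFP label and ELAV cells an ELAV-GFP label, and the constructs behind these labels are not described in the labels. The ELAV label covers neurons in general, so each ELAV array is a mixture of many neuron types, and in such bulk samples fewer cells of a type and less RNA per cell cannot be told apart.

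Dopamine is made from tyrosine by tyrosine hydroxylase (ple) and then dopa decarboxylase (Ddc), and Ddc also performs the last step of serotonin synthesis. Tyramine is made from tyrosine by a tyrosine decarboxylase (Tdc2 in neurons) and is turned into octopamine by tyramine beta-hydroxylase (Tbh). The vesicular transporter Vmat loads these amines into synaptic vesicles, and the plasma membrane transporters DAT and SerT take dopamine and serotonin back into the cell. PDF neurons release the neuropeptide PDF, the small ones being pacemakers of daily behaviour and the large ones light-responsive arousal neurons, and they are better known as receivers of dopamine and octopamine signals than as monoamine neurons.

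Values are log2 GCRMA signals per probe set, and levels are compared between arrays for 1 probe set at a time, never between probe sets. A value under log2 5 is treated as near background. Probe sets at log2 5 or more on 2 or more arrays were tested (8318 probe sets), and one was called at an adjusted p under 0.05 in limma's moderated test with Benjamini-Hochberg adjustment within each comparison. Differences between kinds or genotypes average ZT0 and ZT12 and are given as log2 with their standard error. All 9 probe sets of the 6 genes were tested, but ple and the Vmat probe sets 1636275_a_at and 1632856_s_at passed through their ELAV values alone, so a difference from ELAV was built into their selection.

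The arrays showed the labelled cells by their markers. Pdf lay between 16.17 and 16.20 on per01 arrays, 15.77 and 15.87 on small PDF arrays, 15.50 and 15.99 on large PDF arrays and 2.76 and 5.34 on ELAV arrays. Transcript of per, which the per01 allele does not remove and which therefore does not check that label, lay between 8.11 and 9.64 on per01 arrays and between 7.33 and 12.69 on wild-type large PDF arrays. Medians over all probe sets were 2.57 to 2.59 on the 4 per01 arrays and 3.13 to 3.44 on the 20 others, a shift that touches each comparison with per01. Replicate arrays correlated at 0.937 to 0.980. The GABA synthesis gene Gad1 was at 9.51 on large PDF ZT18 replicate 2 and at 7.11 on small PDF ZT0 replicate 1 but at no more than 2.99 on the other PDF arrays. On large PDF ZT0 replicate 2 the glial gene Gs2 was at 9.53 while repo, alrm and Gat were at no more than 5.14, 4.77 and 2.51 on any large PDF array. The glial genes moody, wrapper and gcm2 were at no more than 5.03, 3.40 and 3.11 there. By contrast, loco lay between 6.35 and 9.10 and nrv2 between 4.62 and 6.37 over the large PDF arrays. The mean of the glial list was 4.73 there, against 3.70 to 4.21 on the other 9 large PDF arrays, and that of the haemocyte list 6.55, against 4.45 to 4.79. The mean of the cholinergic list was 6.78 on large PDF ZT6 replicate 2, against 2.83 to 5.03 on the other 9, and that array was left out only in the fits that omit 1 array at a time. The part of these cells in the results was not tested beyond fits without those arrays.

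**Figure D1:**
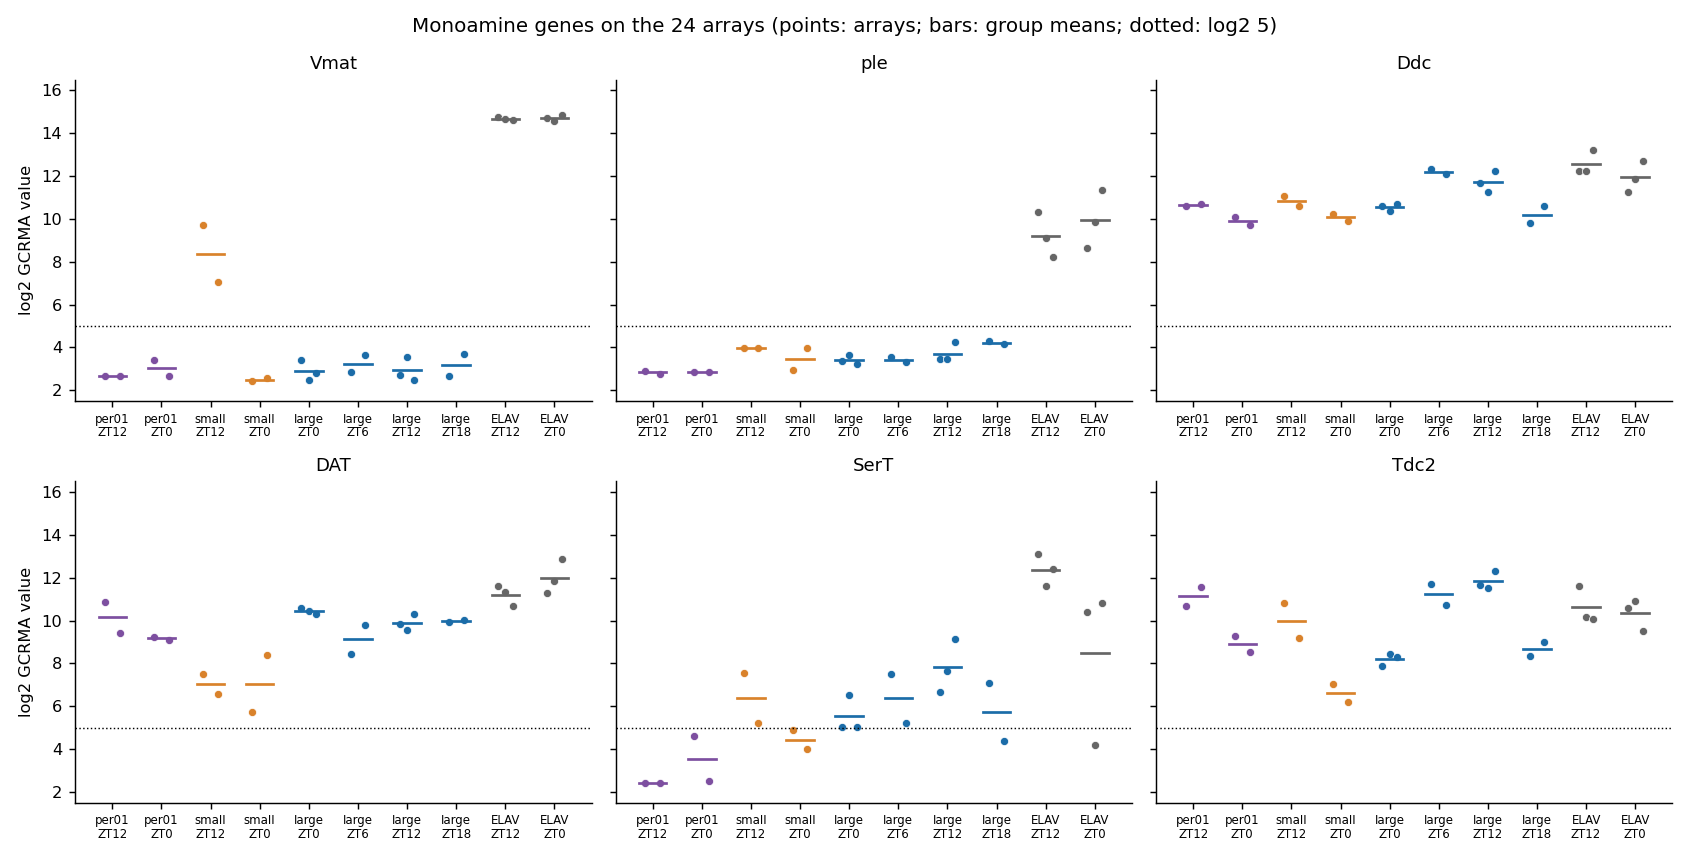
Log2 GCRMA value (y axis) of each of the 6 genes on every array, by group (x axis: per01, small and large PDF neurons and ELAV neurons with zeitgeber time). Points are arrays, bars are group means and the dotted line is log2 5. Vmat is shown by probe set 1637393_at. All PDF arrays lie under the line for ple, 2 small PDF arrays at ZT12 lie above it for Vmat, and Tdc2 is high at ZT6 and ZT12 and low at ZT0 and ZT18 in large PDF neurons.

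In wild-type large PDF neurons 8 of the 9 probe sets were lower than in ELAV neurons and none was higher, against 12.5% lower among all probe sets tested (24.4% called in either direction). The median difference of the 9 was -2.22, against -0.01 over all probe sets tested. Tdc2 was the exception. In small PDF neurons all 9 were lower than in ELAV neurons, against 14% lower among all tested, with medians of -4.56 and 0.02. In per01 large PDF neurons 8 of 9 were lower, again all but Tdc2, against 37.4% lower among all tested. Without ple and the 2 Vmat probe sets that passed through ELAV arrays alone, 5 of 6 were lower in large, 6 of 6 in small and 5 of 6 in per01 large PDF neurons. After quantile normalization of all arrays to 1 distribution (called requantiled below) the 8 were still lower, against 11.9% of all. The per01 comparison moved from 383 higher and 3111 lower calls over all probe sets to 1046 higher and 968 lower under that scaling.

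**Figure D2:**
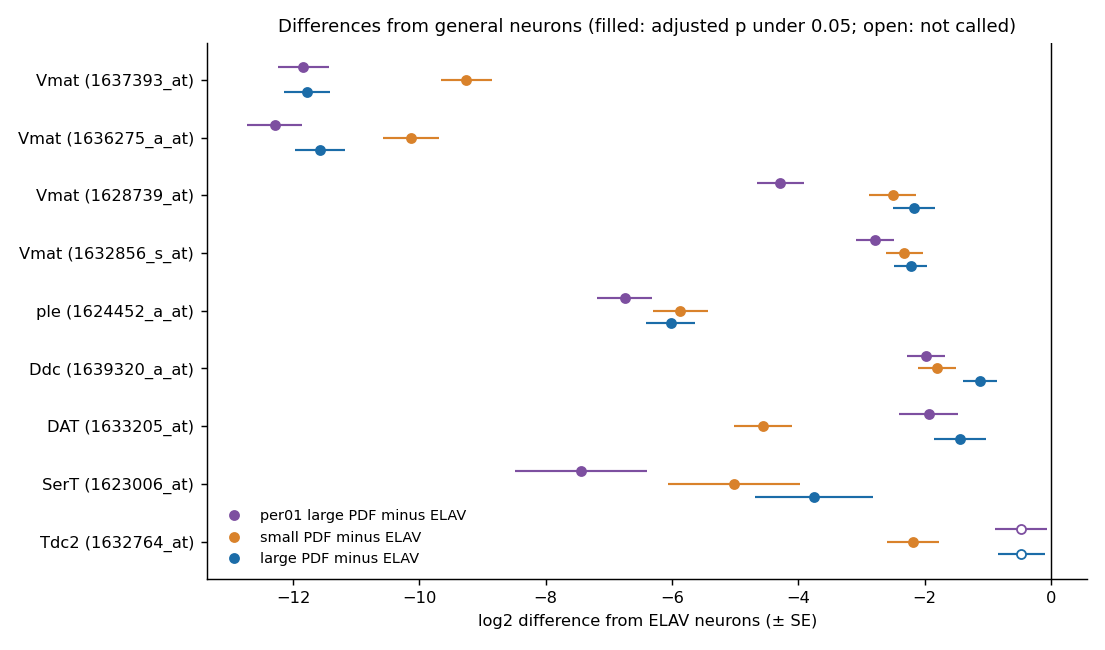
Log2 difference from ELAV neurons with its standard error (x axis) for the 9 probe sets (y axis), for per01 large, small and large PDF neurons. Filled points were called at an adjusted p under 0.05 and open points were not. The 2 open points are Tdc2 in per01 and wild-type large PDF neurons, at -0.47 each.

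The first enzyme of dopamine synthesis was near background in every PDF group. Tyrosine hydroxylase (ple) was at 2.89 and 2.78 at ZT12 and 2.84 and 2.83 at ZT0 in per01 large PDF neurons, and at 3.96 and 3.98 at ZT12 and 2.92 and 3.99 at ZT0 in small PDF neurons. It lay between 3.24 and 4.28 with a median of 3.49 over the 10 arrays of large PDF neurons, against 10.30, 9.11 and 8.21 at ZT12 and 8.65, 9.87 and 11.34 at ZT0 in ELAV neurons. No PDF array reached log2 5 and no ELAV array fell below 8, so the groups did not overlap. The differences from ELAV were -6.75 ± 0.44 for per01 large, -5.87 ± 0.44 for small and -6.02 ± 0.39 for large PDF neurons, given without p because ple passed the filter through its ELAV values alone. Because the PDF values are near background, ple was at least 23.9-fold lower in each of the 3 kinds (18.8 to 30.0 when 1 array was left out). Levels between 2.78 and 4.28 carry no order among PDF groups, and the difference of small from large PDF neurons was 0.15 ± 0.44 (adjusted p = 0.852). Neither small PDF, large PDF, per01 nor ELAV neurons had a called difference of ple between ZT12 and ZT0.

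Dopa decarboxylase (Ddc), by contrast, was far above background on all 24 arrays. It was at 10.60 and 10.70 at ZT12 and 10.08 and 9.72 at ZT0 in per01 large PDF neurons, and at 11.07 and 10.60 at ZT12 and 10.25 and 9.90 at ZT0 in small PDF neurons. ELAV neurons had 12.23, 12.24 and 13.22 at ZT12 and 11.26, 11.88 and 12.69 at ZT0. All per01 and small PDF arrays were below all ELAV arrays. Ddc was lower by 1.98 ± 0.30 in per01 large PDF neurons (log2 difference -1.98, adjusted p = 6.16e-05) and by 1.80 ± 0.30 in small PDF neurons (log2 difference -1.80, adjusted p = 0.000216) than in ELAV neurons. Large PDF neurons were lower than ELAV neurons by a smaller log2 difference of -1.12 ± 0.27 (adjusted p = 0.00519), and here the arrays overlapped. Taken at 1 time each, that difference was -1.40 ± 0.38 at ZT0 (adjusted p = 0.0208) and -0.84 ± 0.38 at ZT12, where it was not called (adjusted p = 0.149).

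Within large PDF neurons Ddc followed the time of day. It was at 10.58, 10.37 and 10.68 at ZT0, 12.31 and 12.11 at ZT6, 11.68, 11.25 and 12.23 at ZT12 and 9.80 and 10.59 at ZT18. Every array at ZT6 and ZT12 was above every array at ZT0 and ZT18. The group means spanned 2.01 on the log2 scale (limma F test over the 4 times, adjusted p = 0.0385), and 2.02% of all probe sets passed this test, with 2 of the 9 (Ddc and Tdc2) among them. The Ddc call ended in 8 of 10 fits that left out 1 large PDF array, the highest adjusted p being 0.121 without ZT18 replicate 1. It also ended in the 24 h cosine fit (adjusted p = 0.0944) and without the 3 arrays high in Gad1 or Gs2 (adjusted p = 0.106). Ddc was not called between ZT12 and ZT0 in large (1.18 ± 0.38, adjusted p = 0.117), small (0.76 ± 0.47, adjusted p = 0.566), per01 (0.75 ± 0.47, adjusted p = 1) or ELAV neurons (0.62 ± 0.38, adjusted p = 0.9997). The difference of small from large PDF neurons was -0.68 ± 0.30 with a 95% interval of -1.31 to -0.04, which did not pass adjustment (adjusted p = 0.135).

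Tyrosine decarboxylase 2 (Tdc2) was the member that changed with time of day in both wild-type PDF kinds. In large PDF neurons it was at 7.88, 8.44 and 8.30 at ZT0, 11.72 and 10.73 at ZT6, 11.66, 11.51 and 12.34 at ZT12 and 8.34 and 9.01 at ZT18. The arrays at ZT6 and ZT12 lay above all arrays at ZT0 and ZT18 with no overlap. The 4 means spanned 3.63 on the log2 scale (limma F test, adjusted p = 0.00165), and the F test called Tdc2 in every fit that left out 1 large PDF array. A cosine of 24 h fitted to the same arrays peaked at 9.66 h with a peak-to-trough difference of 4.44 (adjusted p = 0.0119).

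At ZT12 Tdc2 was higher than at ZT0 by 3.63 ± 0.52 in large PDF neurons (adjusted p = 0.00155), a 12.4-fold difference, and it was the only one of the 9 probe sets called there. Among all probe sets 0.986% were higher at ZT12 in large PDF neurons. With only the large PDF groups in the fit, its adjusted p was 0.0507. Small PDF neurons had 10.80 and 9.19 at ZT12, against 7.06 and 6.18 at ZT0. The times did not overlap, and Tdc2 was higher at ZT12 by 3.37 ± 0.64 (adjusted p = 0.00525), 10.4-fold, but the call was lost without ZT12 replicate 1 (2.57, adjusted p = 0.0942, against 4.18 without ZT12 replicate 2) or without ZT0 replicate 2 (2.93, adjusted p = 0.0916). In small PDF neurons 1.37% of all probe sets were higher at ZT12, and 3 of the 9 probe sets here were: Tdc2 and a pair for Vmat.

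The other kinds gave no call for time. Per01 large PDF neurons had 10.69 and 11.57 at ZT12, against 9.30 and 8.52 at ZT0. These do not overlap either, and the difference was 2.22 ± 0.64 with a 95% interval of 0.87 to 3.57 (adjusted p = 0.771). None of the 9 probe sets was called in per01 neurons by limma, where 0.012% of all probe sets were called and 301 had an unadjusted p under 0.05. For ELAV neurons Tdc2 was at 11.61, 10.18 and 10.10 at ZT12 and 10.61, 10.92 and 9.52 at ZT0, with overlap and a difference of 0.28 ± 0.52 (adjusted p = 0.9997). None of the 9 was called in ELAV neurons by limma, where 0.024% of all were called and 339 had an unadjusted p under 0.05.

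Whether these time differences differ between kinds was tested directly. The Tdc2 difference in per01 minus that in wild-type large PDF neurons was -1.41 ± 0.83 with a 95% interval of -3.16 to 0.33 (adjusted p = 0.714), so neither an equal nor a smaller difference in per01 was shown. Small minus large gave -0.26 ± 0.83 (adjusted p = 0.949). Large PDF minus ELAV gave 3.35 ± 0.74 (adjusted p = 0.0826), which passed only when variances were moderated with a trend and robustly (adjusted p = 0.0263). For those 2 contrasts of large PDF neurons, with per01 and with ELAV, 0 of the 9 probe sets were called, against 0.144% and 0.0962% of all probe sets (707 and 888 at an unadjusted p under 0.05).

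Against ELAV neurons Tdc2 was also compared at each time, although the difference between the times was itself not called (adjusted p = 0.0826). Averaged over both times it was -0.47 ± 0.41 in per01 large PDF neurons (adjusted p = 0.381) and -0.47 ± 0.37 in large PDF neurons (adjusted p = 0.391). At ZT0 large PDF neurons were lower than ELAV neurons, with a difference of -2.14 ± 0.52 (adjusted p = 0.0104), and at ZT12 the difference was 1.21 ± 0.52 and not called (adjusted p = 0.131). Small PDF neurons were lower than ELAV neurons at ZT0 (-3.73 ± 0.59, adjusted p = 0.000225) and not called at ZT12 (-0.63 ± 0.59, adjusted p = 0.521), which averaged to -2.18 ± 0.41 (adjusted p = 0.000677). Of all probe sets 6.48% were lower than ELAV at ZT0 in large and 7.15% in small PDF neurons. These comparisons at single times were chosen after results had been seen. Small PDF neurons were also lower than large PDF neurons, by a log2 difference of -1.71 ± 0.41 (adjusted p = 0.00791), a call lost without small ZT12 replicate 2 (-1.31, adjusted p = 0.0611) or small ZT0 replicate 2 (-1.49, adjusted p = 0.05004).

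**Figure D3:**
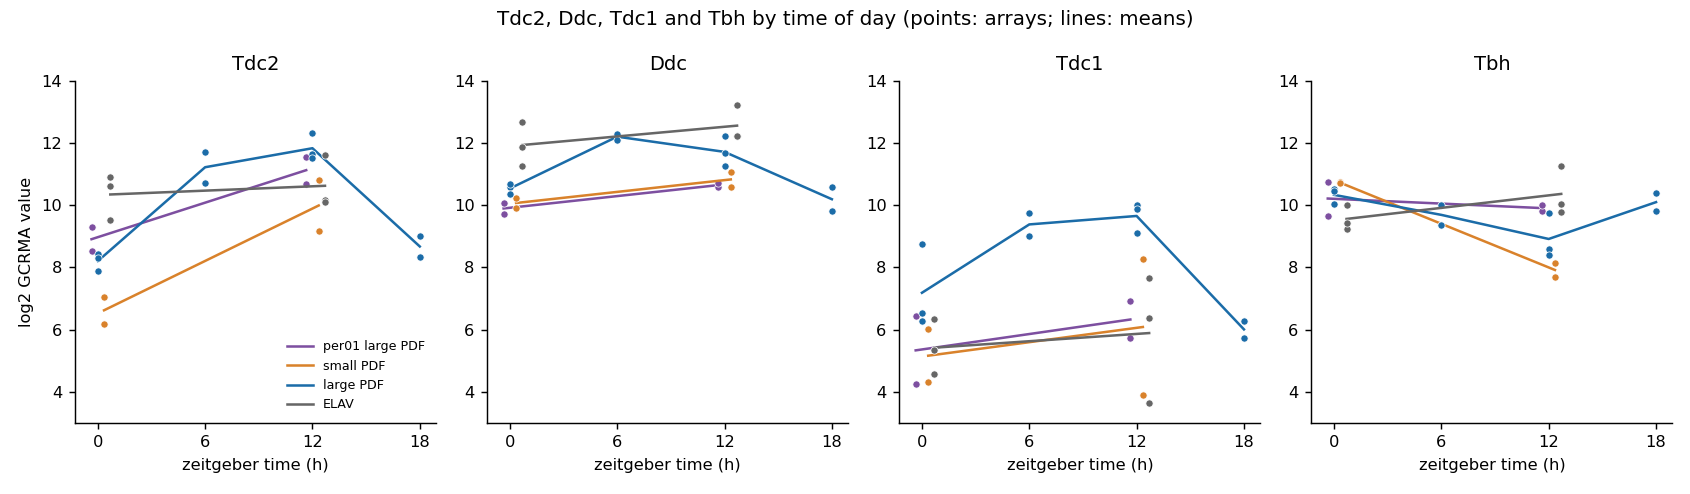
Log2 GCRMA value (y axis) against zeitgeber time in hours (x axis) for Tdc2, Ddc, Tdc1 and Tbh. Points are arrays, lines join group means and colours mark per01 large PDF, small PDF, large PDF and ELAV neurons, which are offset slightly along the x axis. In large PDF neurons Tdc2 spans 3.63 between its lowest mean, at ZT0, and its highest, at ZT12, while Tbh has its lowest mean at ZT12.

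The vesicular transporter gene Vmat, by probe set 1637393_at, was near background in large PDF neurons of both genotypes and above it in small PDF neurons at ZT12. This probe set was at 2.67 and 2.67 at ZT12 and 3.40 and 2.67 at ZT0 in per01 large PDF neurons, and between 2.47 and 3.68 with a median of 2.82 on the 10 large PDF arrays. ELAV neurons had 14.74, 14.68 and 14.62 at ZT12 and 14.70, 14.58 and 14.83 at ZT0. Both large PDF kinds were under log2 5 throughout, and Vmat was at least 827-fold lower than in ELAV neurons in each of them (809 to 845 when 1 array was left out). The fitted differences were -11.84 ± 0.40 in per01 large PDF neurons (adjusted p = 8.50e-13) and -11.78 ± 0.36 in large PDF neurons (adjusted p = 1.34e-13).

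Small PDF neurons had Vmat at 9.70 and 7.05 at ZT12, against 2.43 and 2.55 at ZT0. Both ZT12 arrays were above log2 5 and above all other PDF arrays, and both were below all ELAV arrays. Because the ZT0 values are near background, Vmat was at least 10.4-fold higher at ZT12 than at ZT0 (4.15-fold without ZT12 replicate 1 and 25.9-fold without ZT12 replicate 2). The difference was 3.38 with values under log2 5 set to 5 (adjusted p = 0.000363) and 5.88 ± 0.62 as deposited (adjusted p = 2.43e-05). It was called in every fit that left out 1 small PDF array, but not with only the small PDF groups in the fit (adjusted p = 0.129). In large PDF neurons, all near background, the deposited difference was 0.03 ± 0.51. The difference between small and large PDF neurons in ZT12 minus ZT0 was itself 5.86 ± 0.81 as deposited (adjusted p = 0.00146) and 3.38 with values under log2 5 set to 5 (adjusted p = 0.00978). Vmat 1637393_at was the only one of the 9 probe sets called in that test, against 0.697% of all probe sets. It was 4.54 without small ZT12 replicate 1 and 7.18 without small ZT12 replicate 2, called in both, and it was not called with only those groups in the fit (adjusted p = 0.125).

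Markers of other neurons were present on some of the same arrays. Over small PDF ZT12 replicates 1 and 2 and ZT0 replicates 1 and 2, the cholinergic gene ChAT was at 6.90, 2.63, 2.49 and 7.93. On these 4 arrays the choline transporter gene ChT was at 7.73, 4.49, 5.68 and 7.81, and VGAT, the vesicular GABA transporter gene, was at 6.25, 5.28, 6.24 and 5.58. Vmat 1637393_at itself was at 9.70, 7.05, 2.43 and 2.55 on these arrays, in the same order. The mean of the 3 cholinergic markers ranged from 3.44 to 6.97 on small PDF arrays and from 7.59 to 9.83 on ELAV arrays, and that of the 2 GABA markers from 4.10 to 6.67 on small PDF arrays and from 9.80 to 11.20 on ELAV arrays. The part of other neurons in the Vmat value was not tested. The defining dopamine marker ple was at 3.96 and 3.98 on the 2 arrays with Vmat above log2 5. On the 4 arrays in the order above, SerT was at 7.57, 5.20, 4.88 and 3.98, and Tdc2 at 10.80, 9.19, 7.06 and 6.18. Ddc was at 11.07, 10.60, 10.25 and 9.90, and DAT at 7.52, 6.56, 5.72 and 8.39.

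Of the other Vmat probe sets, 1 more was called with time. Probe set 1636275_a_at was at 7.71 and 4.43 at ZT12, against 3.00 and 2.58 at ZT0, in small PDF neurons, with a called difference of 3.28 ± 0.68 as deposited (adjusted p = 0.00993). With values under log2 5 set to 5 the call was lost (1.36, adjusted p = 0.191), and the bound was at least 2.56-fold. Only 1 of its PDF arrays reached log2 5, and without that array, small ZT12 replicate 1, the difference was 1.64 (adjusted p = 0.127), while without ZT0 replicate 2 it was 3.07 (adjusted p = 0.102). Its ELAV values lay between 14.30 and 14.92. Probe set 1628739_at had 4.53 and 5.07 at ZT12, against 4.26 and 3.09 at ZT0, in small PDF neurons (1.12 ± 0.58, adjusted p = 0.451). Probe set 1632856_s_at had 3.45 and 2.83 at ZT12, against 2.93 and 2.78 at ZT0 (0.28 ± 0.46, adjusted p = 0.905). These last 2 had narrow ranges, with ELAV values of 6.17 to 7.29 for 1628739_at and 4.46 to 6.17 for 1632856_s_at.

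Against ELAV neurons the 4 Vmat probe sets went the same way at very different sizes. The differences in large PDF neurons were -11.57 ± 0.39 for 1636275_a_at, -2.17 ± 0.34 for 1628739_at and -2.22 ± 0.26 for 1632856_s_at. In small PDF neurons they were -9.26 ± 0.40 for 1637393_at, -10.13 ± 0.44 for 1636275_a_at, -2.50 ± 0.37 for 1628739_at and -2.32 ± 0.29 for 1632856_s_at. The last was only -0.49 with values under log2 5 set to 5. No p against ELAV is given for 1636275_a_at and 1632856_s_at because both passed the filter through their ELAV values alone. Without small ZT12 replicate 1 the small PDF differences were -9.92 for 1637393_at and -10.95 for 1636275_a_at, and without small ZT12 replicate 2 they were -8.60 and -9.31. For 1632856_s_at the PDF arrays were all under log2 5, and the bound was at least 1.41-fold in each kind. Averaged over both times, small PDF neurons were at least 3.22-fold higher than large PDF neurons for 1637393_at (2.04 without small ZT12 replicate 1 and 5.09 without small ZT12 replicate 2). The difference was 2.52 ± 0.40 as deposited (adjusted p = 0.000305) and 1.69 with values under log2 5 set to 5 (adjusted p = 0.00116). For 1636275_a_at the bound was at least 1.60-fold, and the deposited difference of 1.44 ± 0.44 was called (adjusted p = 0.0312). That call was lost with values under log2 5 set to 5 (0.68, adjusted p = 0.171). It was also lost in 6 of 10 fits that left out 1 array, with an adjusted p of 0.187 without small ZT12 replicate 1 (difference 0.62). In all 4 of 9 probe sets were called between small and large PDF neurons, 2 higher (both Vmat) and 2 lower (DAT and Tdc2), against 9.14% higher and 7.97% lower among all tested. Without small ZT0 replicate 2 the count was 2.

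**Figure D4:**
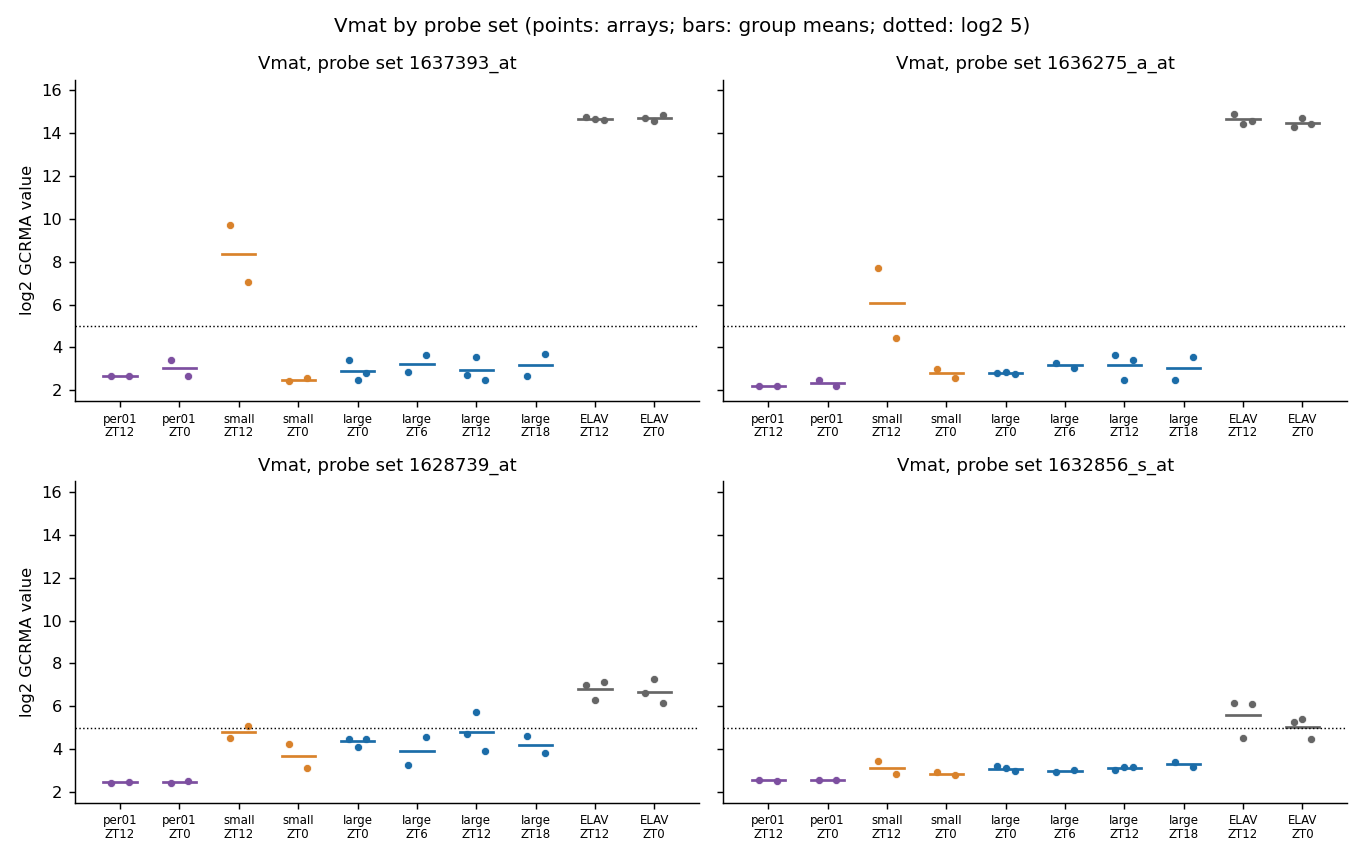
Log2 GCRMA value (y axis) of the 4 Vmat probe sets on every array, by group (x axis). Points are arrays, bars are group means and the dotted line is log2 5. The ELAV arrays lie above 14 for the 2 upper probe sets and below 8 for the 2 lower ones, and small PDF neurons at ZT12 stand above the other PDF groups in the upper pair.

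Of the plasma membrane transporters, the dopamine transporter gene DAT was well above background in large PDF neurons and lower in small ones. Small PDF neurons had 7.52 and 6.56 at ZT12 and 5.72 and 8.39 at ZT0. Large PDF neurons had DAT at 10.57, 10.45 and 10.30 at ZT0, 8.46 and 9.79 at ZT6, 9.84, 9.55 and 10.33 at ZT12 and 9.94 and 10.05 at ZT18. Every small PDF array was below every large PDF array, the nearest pair being 8.39 and 8.46. DAT was lower in small than in large PDF neurons by a log2 difference of -3.13 ± 0.46 (adjusted p = 0.000167), 8.73-fold, and the call held in each of 10 fits that left out 1 array. The fold was 5.49 without small ZT0 replicate 1 and 13.9 without small ZT0 replicate 2.

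ELAV neurons had DAT at 11.60, 11.33 and 10.70 at ZT12 and 11.29, 11.86 and 12.86 at ZT0, above all small and all large PDF arrays. The difference from ELAV was -4.56 ± 0.46 in small (adjusted p = 8.43e-07; -3.89 without small ZT0 replicate 1 and -5.23 without small ZT0 replicate 2) and -1.43 ± 0.41 in large PDF neurons (adjusted p = 0.0168). The large PDF call ended without ELAV ZT0 replicate 3 (-1.22, adjusted p = 0.0504), and at single times it was not called (-1.56 at ZT0, adjusted p = 0.0925, and -1.30 at ZT12, adjusted p = 0.146). Per01 large PDF neurons had 10.88 and 9.44 at ZT12 and 9.24 and 9.11 at ZT0, within or near the range of wild-type large PDF neurons. They were lower than ELAV neurons by a difference of -1.94 ± 0.46 (adjusted p = 0.00300). The difference of per01 from wild-type large PDF neurons was -0.50 ± 0.46 with a 95% interval of -1.48 to 0.47 (adjusted p = 0.413). No kind had a called difference of DAT with time, the 4 large PDF means spanning 1.31 (limma F test, adjusted p = 0.600).

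The serotonin transporter gene SerT was the most variable member between replicate arrays. Per01 large PDF neurons had 2.41 and 2.40 at ZT12 and 4.60 and 2.51 at ZT0, all under log2 5. Small PDF neurons had 7.57 and 5.20 at ZT12 and 4.88 and 3.98 at ZT0. In large PDF neurons it was at 5.02, 6.52 and 5.04 at ZT0, 7.51 and 5.24 at ZT6, 6.67, 7.66 and 9.12 at ZT12 and 7.10 and 4.36 at ZT18. ELAV neurons had 13.09, 11.61 and 12.42 at ZT12 and 10.42, 4.18 and 10.84 at ZT0. All ELAV arrays but 1 were above all PDF arrays, and ELAV ZT0 replicate 2 was within the range of PDF neurons.

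SerT was lower than in ELAV neurons by log2 differences of -7.44 ± 1.05 in per01 large (adjusted p = 2.60e-05), -5.02 ± 1.05 in small (adjusted p = 0.00149) and -3.75 ± 0.94 in large PDF neurons (adjusted p = 0.00659). Without ELAV ZT0 replicate 2 the differences were -8.52, -6.09 and -4.83 in per01 large, small and large PDF neurons, and without ELAV ZT0 replicate 3 they were -6.85, -4.43 and -3.16. The small PDF difference was -5.61 without small ZT12 replicate 1 and -4.42 without small ZT12 replicate 2. All of these were called. With all per01 arrays near background, the per01 fold against ELAV was at least 47.2, and it was 90.5 without ELAV ZT0 replicate 2. At ZT0 alone neither small (-4.05 ± 1.48, adjusted p = 0.0764) nor large PDF neurons (-2.95 ± 1.32, adjusted p = 0.165) were called. Small minus large PDF neurons gave -1.26 ± 1.05 with a 95% interval of -3.47 to 0.94 (adjusted p = 0.440). Between ZT12 and ZT0 SerT was not called in large (2.29 ± 1.32, adjusted p = 0.396), small (1.96 ± 1.62, adjusted p = 0.716), per01 (-1.15 ± 1.62, adjusted p = 1) or ELAV neurons (3.89 ± 1.32, adjusted p = 0.9997).

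Between per01 and wild-type large PDF neurons 3 of the 9 probe sets were lower and none higher, but 31% of all probe sets were lower in that comparison and the median over all was -0.69, so 3 of 9 is close to the background. The 3 were Vmat 1628739_at (-2.12 ± 0.37, adjusted p = 0.000636), Ddc (-0.86 ± 0.30, adjusted p = 0.0389) and SerT (-3.69 ± 1.05, adjusted p = 0.0135). The per01 SerT values are near background, which gives at least 3.19-fold lower (2.54 to 3.89 when 1 array was left out), and the call was lost with values under log2 5 set to 5 (-1.67, adjusted p = 0.228). Over all probe sets the split was 77 higher and 2582 lower as deposited, and 287 higher and 327 lower after requantiling. After requantiling 1 of the 9 was lower, against 4% of all: Vmat 1628739_at at -1.64 (adjusted p = 0.0181). Its per01 values of 2.44 to 2.52 are near background, and its bound was at least 1.09-fold (1 to 1.14 when 1 array was left out). Wild-type large PDF arrays had 4.11 to 4.49 at ZT0 and 3.91 to 5.75 at ZT12. The deposited call for Vmat 1628739_at was lost with values under log2 5 set to 5 (-0.13, adjusted p = 0.748). Ddc was then at -0.40 (adjusted p = 0.480) and SerT at -3.07 (adjusted p = 0.0958). The Ddc call was lost in 8 of 10 fits that left out 1 array, the highest adjusted p being 0.124 without per01 ZT0 replicate 2. The SerT call was lost without that same array (-3.17, adjusted p = 0.0686), which left 1 called probe set. Tdc2 was at 0.00 ± 0.41 as deposited (95% interval -0.87 to 0.87) and at 0.48 after requantiling (adjusted p = 0.505).

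The order of the 10 group means differed by gene. Both ELAV groups were highest for Vmat, ple, DAT and SerT. For Ddc, ELAV at ZT12 was highest at 12.56, followed by large PDF at ZT6 at 12.21, and their arrays overlapped. For Tdc2 the highest mean was large PDF at ZT12 at 11.84 and the lowest small PDF at ZT0 at 6.62. Each neighbour in the Tdc2 order overlapped with the next except large PDF at ZT0 (8.20) and small PDF at ZT0. For DAT the 2 small PDF groups were lowest, at 7.05 and 7.04, separated from the next mean at 9.13 without overlap. For SerT the gap of 3.89 between ELAV at ZT12 (12.37) and ELAV at ZT0 (8.48) was also free of overlap.

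Likeness of profile was measured as Pearson's r over the 10 group means, with the gene's own probe set of highest mean, among genes with a name other than a CG or CR number that passed the filter (4933 for Vmat and 4936 for each of the others). All points share the same arrays and the same contrast of PDF with ELAV neurons, so the values are descriptions. The profile of ple was nearest to those of dan (0.994), Dr (0.992) and Cln3 (0.991), and farthest from that of Pdf (-0.989). Vmat was nearest to dpr16 (0.979), tld (0.967) and Plc21C (0.966) and farthest from Cpr50Cb (-0.979). SerT was nearest to svp (0.960), tsh (0.956) and otk (0.947) and farthest from Aatf (-0.880).

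For the members with high PDF values the nearest genes were others. Ddc was nearest to Oct-TyrR (0.960), which encodes an octopamine and tyramine receptor, then Rab26 (0.949) and Nprl3 (0.929), and farthest from teq (-0.801). DAT was nearest to Sec10 (0.954), CAP (0.944) and RPA1 (0.933) and farthest from smg (-0.942). Tdc2 was nearest to Octbeta1R (0.907), which encodes an octopamine receptor, then Gcna (0.884) and MFS10 (0.809), and farthest from alphaTub84D (-0.906). Among the members themselves r was highest between Vmat and ple (0.949) and lowest between ple and Tdc2 (0.219).

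Other genes of the pathway were described from a list of 21, of which 18 had a probe set and 13 passed the filter. Tdc1, amine-modifying AANAT1 (annotated as speck), the histamine synthesis gene Hdc, genes for the biopterin cofactor (Pu, pr, Sptr, Dhpr, Pcd) and transporter genes (prt, CarT, kar) were among those tested. The genes amd, e, t, AANATL2 and ine did not pass. In large PDF neurons 2 of 13 were higher and 4 lower than in ELAV neurons, against 11.9% higher and 12.5% lower among all probe sets, and the median was -0.34. Without ELAV ZT12 replicate 2 the count of called genes was 3 in place of 6. Small PDF neurons had 2 higher and 3 lower than ELAV neurons (median -0.64, against 0.02 over all, of which 13.6% were higher and 14% lower). Per01 large PDF neurons had 3 lower and none higher than ELAV neurons, against 37.4% lower among all (median -0.23, against -0.74 over all). After requantiling 2 were higher and 2 lower, against 12.8% higher and 11.9% lower among all. CarT, counted as higher in small PDF neurons and in per01 after requantiling, passed the filter on deposited values through PDF arrays alone.

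**Figure D5:**
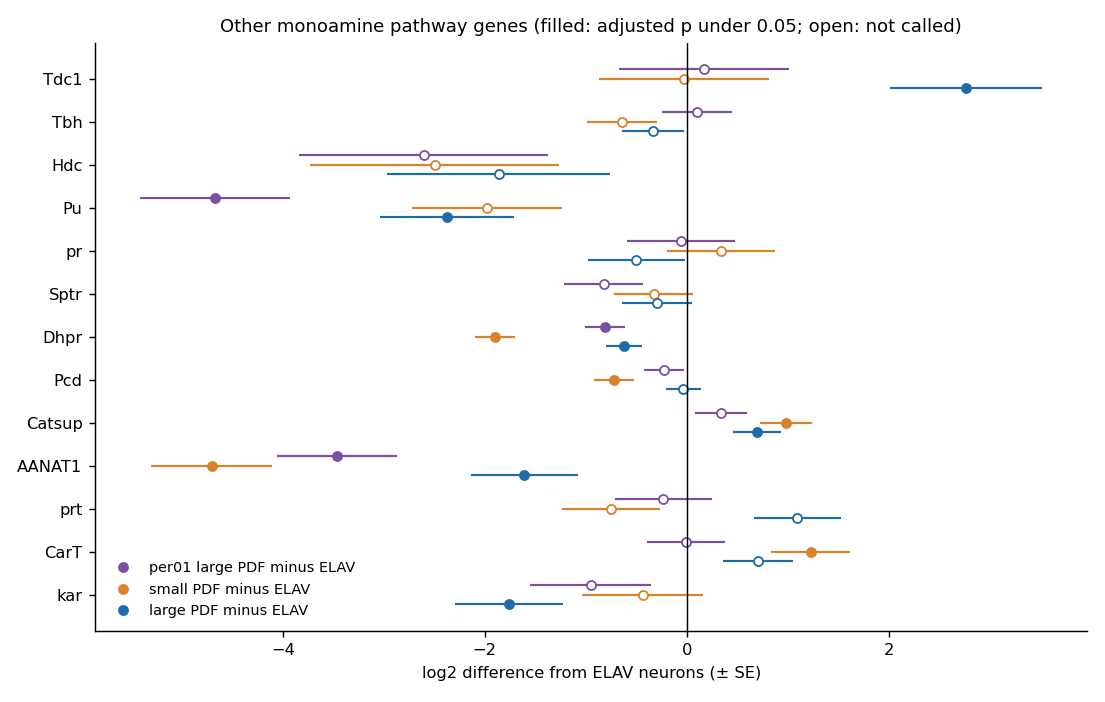
Log2 difference from ELAV neurons with its standard error (x axis) for 13 further genes of monoamine synthesis, transport and cofactor supply (y axis), for per01 large, small and large PDF neurons. Filled points were called at an adjusted p under 0.05 and open points were not. AANAT1 is lower in all 3 kinds, and Tdc1 is called higher in large PDF neurons.

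The second tyrosine decarboxylase gene, Tdc1, whose product is known mainly from non-neuronal tissue, lies next but 1 to Tdc2 in the gene order of RefSeq's Release 6 assembly, with CG15909 between them. Large PDF neurons had Tdc1 at 8.75, 6.54 and 6.26 at ZT0, 9.01 and 9.76 at ZT6, 10.01, 9.87 and 9.09 at ZT12 and 5.72 and 6.29 at ZT18. ELAV neurons had 7.65, 3.63 and 6.39 at ZT12 and 6.33, 5.35 and 4.57 at ZT0. Most but not all large PDF arrays were above the ELAV arrays, and Tdc1 was higher in large PDF neurons by 2.77 ± 0.75 (adjusted p = 0.0117). At single times, chosen after results had been seen, the difference was 1.77 ± 1.07 at ZT0 and not called (adjusted p = 0.319), and 3.77 ± 1.07 at ZT12 (adjusted p = 0.0216), where 7.07% of all probe sets were higher. Its highest means were at ZT6 and ZT12 (9.38 and 9.66) and its lowest at ZT18 (6.01), but the F test over time gave an adjusted p of 0.195. Over the 10 group means Tdc1 correlated with Tdc2 at 0.589.

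Tyramine beta-hydroxylase (Tbh), the step after Tdc2, went the other way with time in small PDF neurons. It was at 7.69 and 8.14 at ZT12, against 10.74 and 10.72 at ZT0, with no overlap. Tbh was lower at ZT12 by a log2 difference of -2.81 ± 0.53 (adjusted p = 0.00519), the only pathway gene of the 13 called there, against 2.02% of all probe sets lower. The call ended without small ZT12 replicate 1 (-2.58, adjusted p = 0.0600) and without the 3 arrays high in Gad1 or Gs2 (adjusted p = 0.0699). Large PDF neurons had Tbh at 10.52, 10.45 and 10.03 at ZT0, 10.02 and 9.36 at ZT6, 8.59, 8.40 and 9.76 at ZT12 and 9.80 and 10.40 at ZT18, and its ZT12 minus ZT0 difference of -1.42 ± 0.44 was not called (adjusted p = 0.0929). It was called without large ZT12 replicate 3 (-1.84, adjusted p = 0.0390). The difference in per01 was -0.31 ± 0.53 and in ELAV neurons 0.80 ± 0.44, neither called. Against ELAV neurons, averaged over both times, Tbh was not called in small (-0.64, adjusted p = 0.183) or large PDF neurons (-0.34, adjusted p = 0.461). At ZT12 alone, again chosen after results had been seen, it was lower in small (-2.45 ± 0.49, adjusted p = 0.00180) and large PDF neurons (-1.45 ± 0.44, adjusted p = 0.0292), against 9.82% and 9.41% of all probe sets lower. Over the group means Tbh correlated with Tdc2 at -0.528.

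Of the 5 cofactor genes, pr and Sptr were not called against ELAV neurons in any kind. The pr differences were -0.06 ± 0.54 in per01 large, 0.34 ± 0.54 in small and -0.50 ± 0.48 in large PDF neurons, and those of Sptr were -0.82 ± 0.39 in per01 large, -0.32 ± 0.39 in small and -0.30 ± 0.35 in large PDF neurons. Pu, the GTP cyclohydrolase gene at the start of biopterin synthesis, was lower than in ELAV neurons by differences of -4.67 ± 0.74 in per01 large (adjusted p = 9.09e-05) and -2.37 ± 0.66 in large PDF neurons (adjusted p = 0.0137), and was at -1.98 ± 0.74 in small PDF neurons (adjusted p = 0.0553). The large PDF difference was -1.77 without large ZT0 replicate 1, and the per01 difference was -5.61 without per01 ZT0 replicate 1 and -3.73 without per01 ZT0 replicate 2, all called. Dhpr, which regenerates the cofactor, was lower in per01 large (-0.81 ± 0.20), small (-1.90 ± 0.20) and large PDF neurons (-0.62 ± 0.18). Pcd, another recycling enzyme gene, was lower in small PDF neurons (-0.72 ± 0.20). Catsup, a negative regulator of ple and Pu products in flies, was higher in small (0.98 ± 0.26, adjusted p = 0.00883) and large PDF neurons (0.70 ± 0.23, adjusted p = 0.0372).

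Amine modification and other transport genes completed the list. AANAT1, which encodes an arylalkylamine N-acetyltransferase, was lower than in ELAV neurons in per01 large (-3.46 ± 0.60, with -2.75 without per01 ZT12 replicate 1 and -4.18 without per01 ZT12 replicate 2), small (-4.70 ± 0.60) and large PDF neurons (-1.61 ± 0.53, adjusted p = 0.0351). All 4 of its small PDF arrays were near background (3.70 to 4.65), so the sizes of its small PDF differences, from ELAV and from large PDF neurons, are uncertain. The transporter gene kar was lower in large PDF neurons (-1.76 ± 0.53, adjusted p = 0.0226). CarT, a carcinine transporter gene, was called higher in small PDF neurons (1.23 ± 0.39), with values of 3.00 to 4.38 on ELAV arrays. No p is given for CarT because it passed the filter through PDF arrays alone, so a difference from ELAV was built into its selection. On small PDF arrays CarT was at 4.23 and 5.27 at ZT0 and 4.61 and 6.41 at ZT12, so all ELAV values and some small PDF values were near background. Small PDF neurons were lower than large PDF neurons for 5 of the 13, namely Tdc1 (-2.80 ± 0.84), Dhpr (-1.27 ± 0.20), Pcd (-0.68 ± 0.20), AANAT1 (-3.10 ± 0.60) and the vesicular transporter-like gene prt (-1.84 ± 0.48), and higher for none, against 7.97% lower and 9.14% higher among all probe sets. The Tdc1 call ended in several fits, with a difference of -1.70 without small ZT12 replicate 1 (adjusted p = 0.181) and of -3.90 without small ZT12 replicate 2. The prt call ended without small ZT12 replicate 2 (-1.15, adjusted p = 0.0990), and prt was at -2.54 without small ZT12 replicate 1. Per01 large PDF neurons were lower than wild-type large PDF neurons for 4 of 13, which is close to the 31% lower among all probe sets. The 4 were Tdc1 (-2.59 ± 0.84), Pu (-2.30 ± 0.74), AANAT1 (-1.86 ± 0.60) and prt (-1.33 ± 0.48). Leaving out 1 array moved Pu to between -3.24 (without per01 ZT0 replicate 1) and -1.36 (without per01 ZT0 replicate 2, adjusted p = 0.182), with -2.90 without large ZT0 replicate 1. It moved AANAT1 to -1.14 without per01 ZT12 replicate 1 (adjusted p = 0.182) and to -2.57 without per01 ZT12 replicate 2. None of these 4 remained called after requantiling, and the count was 0 without per01 ZT12 replicate 1, 1 without per01 ZT0 replicate 2 and 1 without large ZT0 replicate 2. Hdc was not called in any of these comparisons, being at 11.96 on ELAV ZT12 replicate 3 and at 5.48 or less on the other ELAV arrays.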

How the data were processed

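The series holds 24 Affymetrix arrays of collected neurons in 10 groups of cell kind, genotype and time. The authors deposited log2 GCRMA values for 18952 probe sets, for which per the submitters' processing notes GCRMA and R 2.6 were used. GCRMA uses probe sequence to correct background, brings arrays to 1 distribution and summarizes the probes of a set. The arrays that were normalized as 1 batch are not named in the labels. From the deposited log2 values, 183 control probe sets were removed and those at log2 5 or more on 2 or more arrays were kept. Genes came from the platform annotation, in which 13647 probe sets had 1 symbol, 402 several and 4720 none. AANAT1 was matched through a synonym, and 3 listed genes (Trhn, Hn and b) were not matched and are not analysed here.

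limma 3.58.1 in R 4.3.3 fitted 1 mean per group (14 residual and 3.62 prior degrees of freedom), with Benjamini-Hochberg adjustment over all 8318 probe sets tested in each comparison. A fold is given as "at least" where all arrays of the lower side were under log2 5, taking values under 5 as 5. The replicates are biological per the labels. Each p rests on 1 estimate of the spread between replicates per probe set, shared by all 10 groups and moderated over probe sets. The small number of arrays limits precision. The fit was tested on simulated data. The genes and lists were chosen with earlier results of these data known. The 6 genes are reported for every probe set, and for a gene with several the one with the highest mean stands for it. Pathway genes are named where called in any comparison of kinds or genotypes. Tbh and Hdc were added after their values were seen, and pr and Sptr were added to complete the cofactor genes. Replicate numbers were not used to pair samples in the main fit. Deviations of same-numbered arrays at ZT0 and ZT12 of a kind correlated at -0.096 to 0.139. Whether same-numbered samples were processed together was not tested. Alternatives were 1 probe set per gene, no filter, filtering at log2 7, setting values under log2 5 to 5, requantiling, centring on medians, array weights, moderation with a trend and robustly, a replicate block, omitting the 3 arrays high in Gad1 or Gs2, only the groups compared, a 24 h cosine and leaving out each array. No sequences or coordinates are given.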

Additional observations from a re-analysis of the deposited data

Results flagged for a closer look

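The 9 probe sets were checked within each of the 4 kinds over all times (36 checks, of which chance gives about 1 in 20) for an array far from the others by Dixon's criterion. The largest departure among expressed values was SerT on ELAV ZT0 replicate 2, at 4.18 against 10.42 to 13.09 on the other 5 ELAV arrays. DAT on large PDF ZT6 replicate 1 was at 8.46 against 9.55 to 10.57 on the other 9. The 6 further cases were near background. In per01 neurons these were Vmat 1637393_at at 3.40 (others 2.67), Vmat 1636275_a_at at 2.49 (others 2.20) and SerT at 4.60 (others 2.40 to 2.51), all on ZT0 replicate 1, and Vmat 1628739_at at 2.52 on ZT0 replicate 2 (others 2.44). In wild-type PDF neurons they were Vmat 1632856_s_at at 3.41 on large ZT18 replicate 1 (others 2.94 to 3.19) and ple at 2.92 on small ZT0 replicate 1 (others 3.96 to 3.99).

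The difference between ZT12 and ZT0 differed between small and large PDF neurons for Vmat 1637393_at, by 5.86 on the log2 scale as deposited (limma, adjusted p = 0.00146) and by 3.38 with values under log2 5 set to 5 (adjusted p = 0.00978). The cause was not tested.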

How the results depend on the processing

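CarT in per01 large PDF minus ELAV neurons was -0.01 and not called as deposited, and 1.28 and called after requantiling. Its p is left out because CarT passed the filter on deposited values through PDF arrays alone. No other difference was called with the opposite sign. Of 1262 member differences under other settings 1227 kept their side of the threshold, as did 995 of 1026 member differences that left out 1 array. With 1 probe set per gene the member counts below ELAV were 5 in per01 large and 5 in large PDF neurons. In per01 minus wild-type large PDF neurons 1 member was called with the floor at log2 5, with median centring, after requantiling or at ZT0 only, and of other pathway genes 2 with the floor, 0 with median centring, 0 after requantiling, 1 without the 3 arrays high in Gad1 or Gs2 and 1 with only the groups compared. A variance trend with robust moderation gave 2 members and 1 pathway gene in ZT12 minus ZT0 of large PDF neurons, and 1 member in the interaction of large PDF and ELAV neurons. With only the groups compared in the fit, 0 members were called in ZT12 minus ZT0 of large PDF neurons, 0 in that of small PDF neurons, 0 in the interaction of small and large, and 1 in the time course, with 2 pathway genes between small and large and 0 in ZT12 minus ZT0 of small PDF neurons. The time course called 1 member after requantiling, without the 3 arrays and in the 24 h cosine fit. Without the 3 arrays 3 pathway genes were called between small and large and 0 in ZT12 minus ZT0 of small PDF neurons. The cause was not tested in these cases, except that fits of fewer groups hold fewer arrays.

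Leaving out 1 array gave 7 to 8 members for large PDF minus ELAV (7 without ELAV ZT0 replicate 3), 9 to 9 for small minus ELAV, 2 to 4 for small minus large, 1 to 3 for per01 minus large and 8 to 8 for per01 minus ELAV. It gave 1 to 1 in ZT12 minus ZT0 of large, 1 to 3 in that of small, 1 to 2 in the interaction of small and large (2 without small ZT12 replicate 2) and 1 to 2 in the time course. Pathway counts were 3 to 7 for large minus ELAV (3 without ELAV ZT12 replicate 2), 4 to 6 for small minus ELAV, 3 to 5 for small minus large (3 without small ZT12 replicate 1 or small ZT0 replicate 2), 0 to 3 for per01 minus large (0 without per01 ZT12 replicate 1), 3 to 4 for per01 minus ELAV, 0 to 1 in ZT12 minus ZT0 of large (1 without large ZT12 replicate 3) and 0 to 1 in that of small (0 without small ZT12 replicate 1).

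The replicate block ended 1 member call, Ddc in per01 minus large PDF neurons (-0.60, adjusted p = 0.0894), with 2007 probe sets called for large PDF minus ELAV against 2030 without the block. In large PDF neurons 2 of 6 arrays, and in ELAV neurons 2 of 6, correlated best with their own number. Over all probe sets median centring gave 251 higher and 469 lower in per01 minus large PDF neurons. Values under log2 5 limit ple and Vmat in PDF neurons to bounds.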

Other observations

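Across the 6 ELAV arrays ple and DAT, genes of dopamine synthesis and uptake, had a high correlation that did not pass adjustment. The order of arrays was the same for most of the range, with ELAV ZT0 replicate 3 highest in both (11.34 for ple and 12.86 for DAT) and ELAV ZT12 replicate 3 lowest in both (8.21 for ple and 10.70 for DAT). Pearson's r was 0.940 (exact permutation test over 720 orders, two-sided p = 0.00417, adjusted p = 0.0625 over 15 pairs of the 6 genes, n = 6), and Spearman's rho was 0.943 (exact permutation p = 0.0167, adjusted p = 0.25). Without the 2 arrays farthest from the median of ple, r was 0.775. With each array taken as its deviation from the mean of its time, a check added after seeing the data, r was 0.973 (exact permutation within times over 36 orders, two-sided p = 0.0556). The pair was picked after its values were seen. None of the 15 pairs passed adjustment.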
